A study of Mus musculus with 4 samples.

Results

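The prefrontal cortex of Glo1 heterozygous mice that ate a sucrose diet was compared with that of wild-type mice that ate a starch diet, so that the samples differed in both diet and genotype. The comparison rested on 2 of the study's 4 arrays, each of them 1 array of pooled RNA, and on 42094 probes. Of these probes, 35477 carried a gene name and stood for 20655 named genes. All 4 groups were mice of the B6J strain, 3 months old, kept on their diet for about 70 days from postnatal day 21, and the RNA of 3 mice was pooled per group before 200 ng was labelled with the dye Cy3. The other arrays held wild-type mice on sucrose and Glo1 heterozygous mice on starch, and are given beside the comparison. The labels name the genotypes only as wild type and Glo1 heterozygote, and how the Glo1 allele was made is not given in the sources used here.

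Glo1 encodes glyoxalase 1, the enzyme that, with glutathione, starts the removal of methylglyoxal, a reactive by-product of sugar breakdown that modifies proteins and forms advanced glycation end products. The prefrontal cortex is a layered cortical region of excitatory pyramidal neurons and inhibitory interneurons, with glia and blood vessels among them. It borders on other structures of the forebrain, and the fluid spaces nearby are lined by ciliated ependymal cells and hold the choroid plexus, the epithelium that secretes cerebrospinal fluid. The design crosses a genotype with a diet, and the present comparison asks how the tissue that carried both differed from the tissue that carried neither.

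A level below is the background-corrected signal of a probe divided by the 75th percentile of its array, and is comparable between arrays for 1 probe but not between probes. A gene stands for its brightest probe by the mean level over the 4 arrays. That mean includes both arrays compared, so a probe can be chosen through the array on which it is high. A difference is the log2 level on the heterozygous sucrose array minus that on the wild-type starch array, and 2-fold is a size chosen for counting. With 1 array a side there were no replicates, so no difference has an error or a test. The 4 arrays lay on 1 slide with 1 group each, so that array position and group cannot be told apart.

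Glo1 itself was lower on both arrays from heterozygous mice. Its level was 4.04 in wild-type starch, 5.53 in wild-type sucrose, 2.74 in heterozygous starch and 3.04 in heterozygous sucrose. From wild-type starch to heterozygous sucrose the difference was -0.41, or 1.33-fold lower, and the 2 other probes of the gene gave -0.39 and -0.39. On each of the 3 probes both heterozygous arrays lay below both wild-type arrays. The brightest probe lies at chr17:30729951-30730010 (mm9), and whether any of the probes falls in the altered part of the gene is not known.

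The tissue label was checked against 4 markers of cortical excitatory neurons, which were well above background on every array. Slc17a7, the vesicular glutamate transporter of these cells, was at 3.49 in wild-type starch, 4.44 in wild-type sucrose, 3.99 in heterozygous starch and 4.68 in heterozygous sucrose. Tbr1, a transcription factor of deep layers, was at 13.9, 18.5, 15.7 and 13.5 in the same order. Cux2, an upper-layer factor, stood at 3.81, 4.38, 4.04 and 3.70. Camk2a, the kinase of excitatory synapses, was at 37.0, 53.7, 50.6 and 54.0, so its lowest level was on the wild-type starch array. None of these 4 genes differed by 2-fold. Slc17a7 and Tbr1 are also members of the olfactory bulb list, so the check cannot tell cortex from other forebrain tissue.

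Most genes had nearly the same level on both arrays. The median difference over all 20655 genes was -0.02, the 5th and 95th percentiles were -0.49 and 0.51, and 92.7% of the genes lay within 1.5-fold. Of the 42094 probes, 766 (1.82%) differed by 2-fold or more, 488 of them (1.16%) higher and 278 (0.66%) lower on the heterozygous sucrose array. Among genes, 278 (1.35%) were higher and 135 (0.654%) lower by that much, and counting any difference 52.7% were lower. Among these genes, kept for being well above background on all 4 arrays, the large differences lay on the higher side. Of them, 61 were 4-fold or more above and 9 as far below, and 19 were above by 8-fold against 0 below. Probes well above background on 1 side only gave bounds past 8-fold in both directions. Slc4a5 was at least 83.4-fold higher and Gm30225 at least 22.1-fold lower. The share of higher genes depended on the filter against dim probes: without it 804 genes were higher and 907 lower, so that the higher ones made up 47.0% in place of 67.3%.

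**Figure D1:**
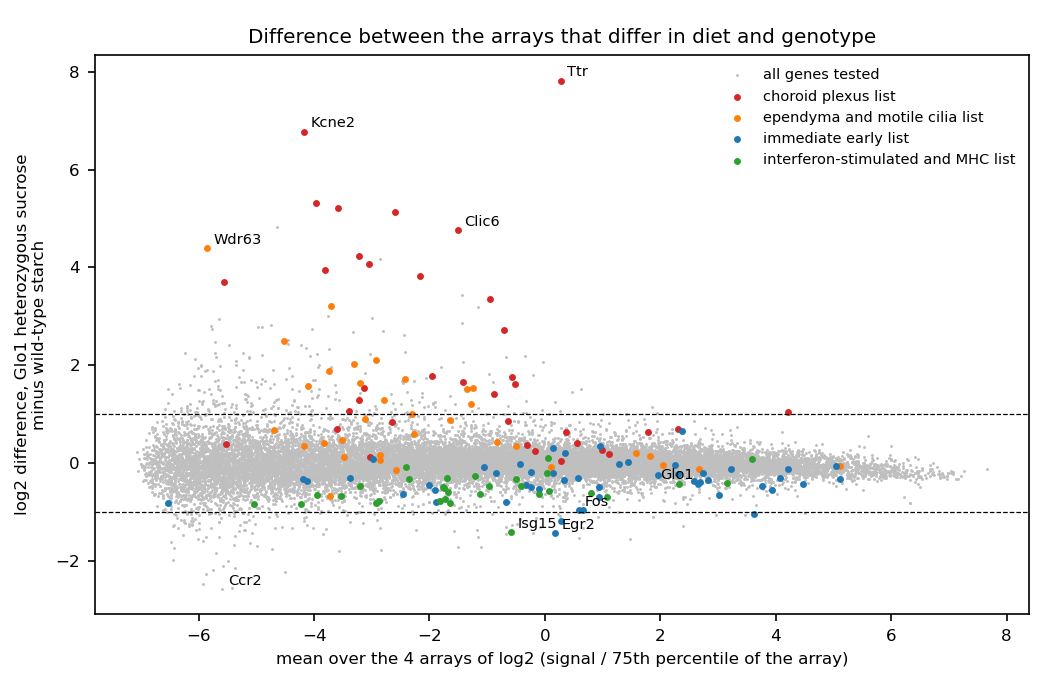
Each point is 1 of 20655 genes; the x axis is its mean log2 level over the 4 arrays, the y axis the log2 level on heterozygous sucrose minus that on wild-type starch, and dashed lines mark 2-fold. Genes of the choroid plexus and cilia lists (red, orange) reach far above the grey cloud, up to 7.83 for Ttr, whereas genes of the immediate early and interferon lists (blue, green) lie mostly between 0 and -1.

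Dim genes made up most of these counts. Of the genes that differed by 2-fold, 221 of the higher and 102 of the lower ones had a mean level below the median of the probes tested. Above it, 57 of 13033 genes (0.437%) were higher and 33 (0.253%) lower. That mean includes both arrays compared, so a gene can lie above the median level through the array on which it is high, as Clic6, Lct and Aqp1 do through heterozygous sucrose, and values given above the median level are descriptions of the genes it leaves. Where a higher gene had other tested probes, at least 1 of them was also 1.5-fold higher or more for 38 of 66 genes. For lower genes the count in their direction was 8 of 21.

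The choroid plexus genes stood out among the genes that were higher. All 36 members tested of a list of 40 choroid plexus genes were higher on the heterozygous sucrose array, 22 of them by 2-fold or more, where 1.35% of all genes were. Their median difference was 1.47 (0.95 over members above the median level, some of which pass it only through heterozygous sucrose), against -0.02 for all genes. Side by side, the same list had a median of 0.11 in wild-type sucrose and 0.00 in heterozygous starch against the same wild-type starch array, which the comparisons share. In bulk tissue more cells of a type and more RNA per cell cannot be told apart.

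Ttr encodes transthyretin, the thyroid hormone carrier that choroid plexus epithelium secretes. Its level was 0.259 in wild-type starch, 1.42 in wild-type sucrose, 0.101 in heterozygous starch and 58.7 in heterozygous sucrose. The difference was 7.83 (227-fold), the largest of all genes tested, and a second, dimmer probe gave 6.93. Wild-type sucrose was the next highest array, and heterozygous starch the lowest.

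Ion channel genes of the same epithelium were also highest on heterozygous sucrose. Kcne2, a potassium channel subunit, was at 0.0126 in wild-type starch, 0.0419 in wild-type sucrose, 0.0130 in heterozygous starch and 1.39 in heterozygous sucrose, a difference of 6.78. Clic6, a chloride intracellular channel protein, was at 0.0978, 0.262, 0.229 and 2.65 in the same order, a difference of 4.76. Kcnj13, an inwardly rectifying potassium channel, was at 0.346, 0.374, 0.463 and 2.28, a difference of 2.72. In each the heterozygous sucrose array stood alone at the top. Aqp1, the water channel of the fluid-facing membrane, was at 0.274, 0.0634, 0.274 and 0.946, so that it was higher by 1.79 on heterozygous sucrose while wild-type sucrose was the lowest array.

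Receptors, secreted factors and regulators of the choroid plexus were also higher. Folr1, a folate receptor, was at 0.0772 in wild-type starch, 0.0976 in wild-type sucrose, 0.0356 in heterozygous starch and 2.72 in heterozygous sucrose, a difference of 5.14, and its second probe gave 2.54. Sostdc1, a secreted antagonist of BMP and Wnt signals, was at 0.0278, 0.0476, 0.0345 and 1.03. Kl, which encodes Klotho, a co-receptor of fibroblast growth factor signalling, was at 0.107, 0.126, 0.119 and 1.52. The other 3 arrays lay close together for Sostdc1 and Kl, far below heterozygous sucrose. Otx2, a homeobox transcription factor of this epithelium, was at 0.0563, 0.0743, 0.0545 and 0.944, a difference of 4.07, although its other, dimmer probe differed by only 0.01. Among structural members, the keratin Krt18 was higher by 5.31 and the claudin Cldn1 by 1.28. F5, clotting factor V, which the list holds as a choroid plexus transcript, was higher by 4.23.

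The members with the smallest differences were Slco1a4, a transporter also made by brain endothelium (0.04), Slc5a5 (0.13) and Slc2a12 (0.19). Enpp2, which encodes autotaxin and is also made by oligodendrocytes, was at 15.7, 15.8, 15 and 32.5 in wild-type starch, wild-type sucrose, heterozygous starch and heterozygous sucrose, a difference of 1.05, with its 2 dimmer probes at 0.66 and 0.20. The summed level of the list was 36.2, 39.3, 37.3 and 139 in the same order. Of the 4 members that could not be tested on all arrays, Slc4a5, a bicarbonate transporter, had a probe not well above background on the wild-type starch array. By that probe it was at least 83.4-fold higher on heterozygous sucrose, and by its other probe at least 7.28-fold.

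Genes of motile cilia and ependyma were also higher. Of 34 tested, 28 were higher, 14 by 2-fold or more where 1.35% of all genes were, and 0 lower by 2-fold where 0.654% were. The median was 0.63, and 0.27 over members above the median level. On the other arrays it was -0.16 in wild-type sucrose and -0.11 in heterozygous starch against the shared wild-type starch array. The members above 2-fold include several parts of the axoneme, the moving core of a cilium.

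Wdr63, an axonemal dynein component, was at 0.00926 in wild-type starch, 0.00629 in wild-type sucrose, 0.00794 in heterozygous starch and 0.195 in heterozygous sucrose, a difference of 4.40. Ccdc153 was at 0.0545, 0.0429, 0.0289 and 0.505 in the same order. Dnali1, a dynein light intermediate chain, was at 0.0334, 0.0218, 0.0259 and 0.189. These 3 genes had their highest level on heterozygous sucrose, with the other arrays near each other. Dnah6 and Dnah9, dynein heavy chains, were higher by 2.10 and 1.72, the 2 other probes of Dnah9 giving 1.95 and 1.40, and Cfap52 was higher by 2.02. Foxj1, the transcription factor that directs the making of motile cilia, was at 0.111, 0.0549, 0.0639 and 0.153, a difference of 0.47 that did not reach 2-fold.

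Several of the leading genes are best known from hippocampal neurons, and a list of such genes was therefore drawn up after the leading genes had been seen, so that its count is a description of those genes and not independent of them. Of 52 tested, 40 were higher, 11 of them by 2-fold or more where 1.35% of all genes were, and 12 were lower, none by 2-fold. The median was 0.42 (0.20 over members above the median level), beside 0.02 in wild-type sucrose and 0.01 in heterozygous starch. Genes of dentate granule cells and of pyramidal cells were both among the 11.

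Prox1, the homeobox factor of dentate granule cells, was at 0.241 in wild-type starch, 0.293 in wild-type sucrose, 0.274 in heterozygous starch and 1.01 in heterozygous sucrose, a difference of 2.07, and its other probe gave 1.99. Dsp, desmoplakin, also strong in granule cells, was at 0.0147, 0.0236, 0.0181 and 0.416 in the same order, a difference of 4.82. Lct, the gene of lactase, was at 0.173, 0.364, 0.156 and 1.87, a difference of 3.43. All 3 were highest on heterozygous sucrose by a wide margin. Spink8, a protease inhibitor gene of pyramidal cells of field CA1, was at 0.220, 0.308, 0.171 and 1.6, and Fibcd1, also of that field, was higher by 1.92.

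Nr3c2, the mineralocorticoid receptor, was at 2.81, 3.41, 2.89 and 6.22 in wild-type starch, wild-type sucrose, heterozygous starch and heterozygous sucrose, a difference of 1.14. Its 2 other probes gave 1.27 and 1.24, so that all its probes differed alike. The serotonin receptor gene Htr4 was higher by 3.01 on 1 probe, while its other probe gave -0.24. C1ql2, a secreted synaptic organiser, was higher by 1.48. The 12 members that were lower, by up to -0.38, included Pcp4 (-0.32), Calb1 (-0.03) and C1ql3 (-0.01). Grik4, a kainate receptor subunit, was at 2.27, 3.16, 2.11 and 3.75, a difference of 0.73.

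Together the choroid plexus, cilia and hippocampal lists, the last of them drawn up after the leading genes had been seen, made up 122 of the 20655 genes and held 47 of the 278 higher by 2-fold and 0 of the 135 lower by 2-fold. Without the members of these lists, 231 genes were higher and 135 lower. The part that markers of these cells have in the other differences was not tested.

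**Figure D2:**
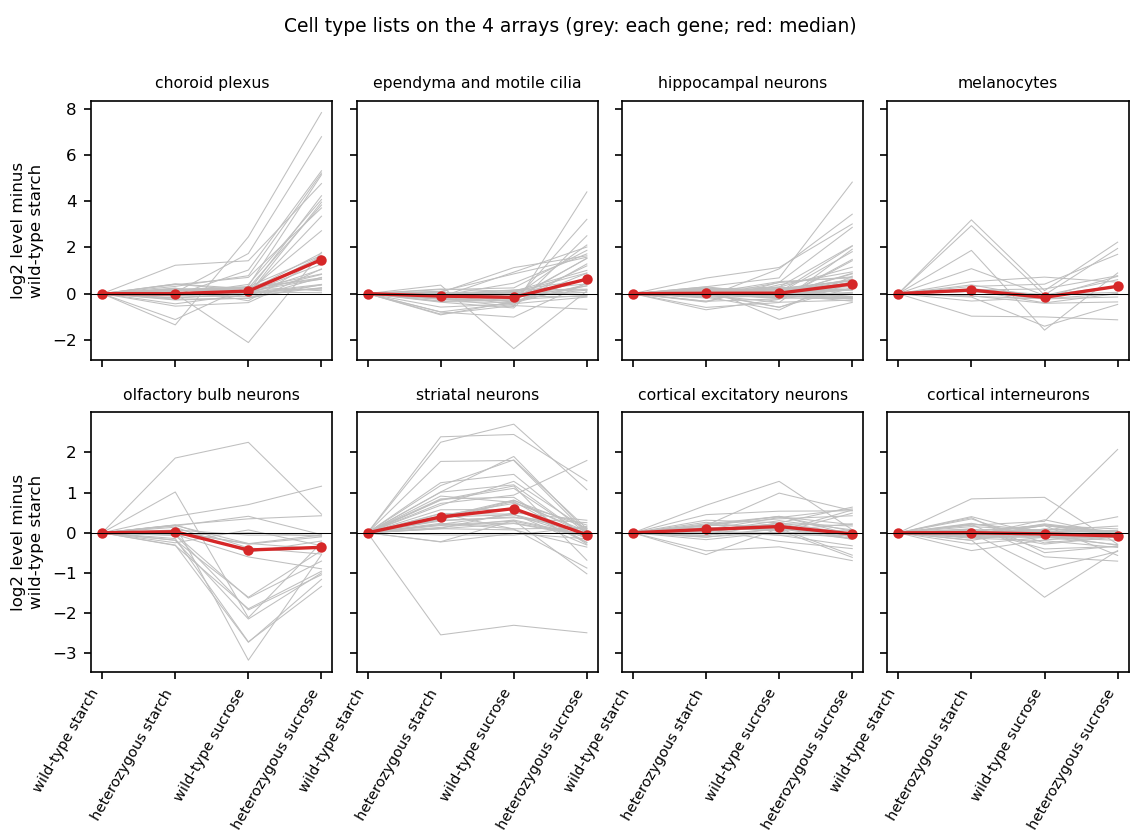
Each grey line is 1 gene and the red line the list median; the y axis is the log2 level minus that of the wild-type starch array, which is therefore 0, and lines only join the values of a gene over separate arrays. The choroid plexus, ependyma and hippocampal lists are highest on heterozygous sucrose, the olfactory bulb list is lowest on wild-type sucrose, and the striatal list is at -0.05 on heterozygous sucrose but at 0.60 and 0.39 on wild-type sucrose and heterozygous starch.

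Of the 15 genes with the largest positive differences above the median level, others lie outside these lists. Shisa6, an auxiliary protein of AMPA-type glutamate receptors, was at 0.499 in wild-type starch, 0.602 in wild-type sucrose, 0.557 in heterozygous starch and 2.27 in heterozygous sucrose, a difference of 2.18. Its other probe differed by only 0.27. Tspan18, a tetraspanin, was at 0.447, 0.401, 0.423 and 2.01 in the same order, a difference of 2.17, and its 2 other probes gave 1.63 and 2.57. The probes of Tspan18 differed alike and those of Shisa6 did not.

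Slc35f2, a solute carrier gene, followed a different pattern. It was at 0.0916 in wild-type starch, 0.813 in wild-type sucrose, 0.654 in heterozygous starch and 0.832 in heterozygous sucrose. Its difference of 3.18 therefore came from a low level on the wild-type starch array alone. Lrrc10b was at 0.477, 0.913, 0.791 and 1.66, with wild-type starch the lowest and heterozygous sucrose the highest array.

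The pigment genes Dct and Mlana were higher on both heterozygous arrays. Dct, an enzyme of melanin synthesis, was at 0.124 in wild-type starch, 0.119 in wild-type sucrose, 0.954 in heterozygous starch and 0.482 in heterozygous sucrose, a difference of 1.96. Its other probe went the other way, at -1.16. Mlana, a melanosome protein, was at 0.0246, 0.0269, 0.225 and 0.115 in the same order, and heterozygous starch was the highest array for both genes. Oca2, a melanosomal membrane protein, was at 0.0414, 0.0550, 0.0514 and 0.134, highest on heterozygous sucrose alone, and its other probe gave 1.2. Of 17 melanocyte genes tested, 13 were higher, 3 by 2-fold where 1.35% of all genes were, and Tyr, the gene of tyrosinase, was 2-fold lower (-1.13) where 0.654% were. The median was 0.32, and 0.06 over members above the median level.

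**Figure D3:**
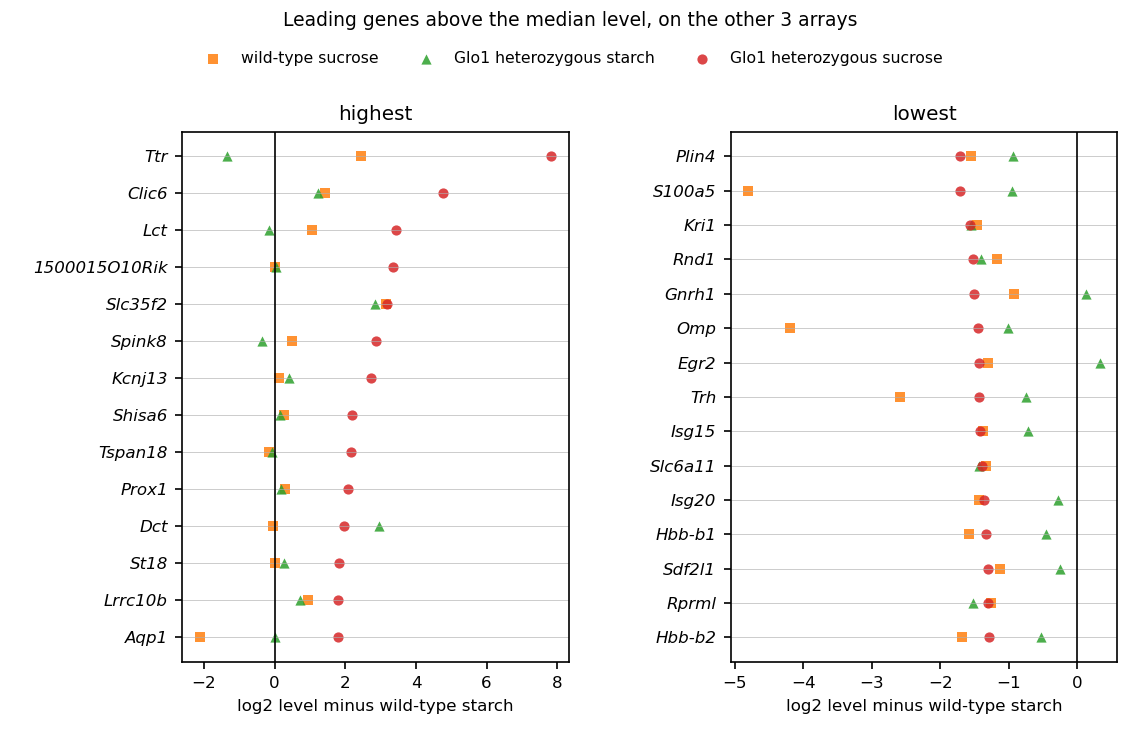
For 14 of the 15 highest and all of the 15 lowest genes above the median level, points give the log2 level minus that of the wild-type starch array (x axis) for the other 3 arrays. Among the highest genes the red point of heterozygous sucrose mostly stands alone to the right, but not for Slc35f2 and Dct; among the lowest genes it mostly lies beside the orange point of wild-type sucrose or beside both others.

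With the filter against dim probes the lower genes were fewer and differed less, whereas without it 907 genes were lower and 804 higher. The 15 lowest above the median level ranged from -1.29 to -1.72, and none of the 135 lower genes reached 8-fold. They included activity-induced, stress, interferon, haemoglobin and olfactory genes, together with genes that were high on the wild-type starch array alone. Counting levels on all 4 arrays, heterozygous sucrose stood 2-fold from the 3 others, which lay within 2-fold of each other, for 146 of the 278 higher genes and 2 of the 135 lower ones. Wild-type starch stood apart in that way for 3 of the higher and 41 of the lower genes. Choosing genes by this comparison favours both of these arrays over the others, so the counts describe the genes and nothing more.

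Immediate early genes, which neurons switch on within minutes of activity, were mostly lower. Of 50 tested, 44 were lower, 3 of them by 2-fold or more where 0.654% of all genes were, and 6 were higher. The median was -0.35, beside -0.32 in wild-type sucrose and 0.10 in heterozygous starch against the shared array.

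Egr2, a zinc finger transcription factor, was at 1.72 in wild-type starch, 0.695 in wild-type sucrose, 2.15 in heterozygous starch and 0.633 in heterozygous sucrose, a difference of -1.44. Egr1, of the same family, was at 16.7, 9.92, 17.4 and 8.05 in the same order, a difference of -1.05. Inhba, which encodes a subunit of the secreted activins, was at 1.85, 0.773, 1.87 and 0.812, a difference of -1.19. In all 3 genes both starch arrays lay above both sucrose arrays.

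Npas4, a neuron-specific activity factor, was at 2.18, 1.24, 2.04 and 1.11 in wild-type starch, wild-type sucrose, heterozygous starch and heterozygous sucrose, a difference of -0.97. Fos, a subunit of the AP-1 transcription factor, was at 1.89, 1.22, 2.28 and 0.968, also -0.97. Arc, a regulator of synaptic receptors, was at 9.29, 6.74, 11.9 and 5.89, a difference of -0.66. The starch arrays were again the higher ones. Jun went the other way, at 4.43, 5.09, 4.62 and 7.01, a difference of 0.66, the largest positive one in the list, and Nr4a2 (-0.02), Dusp1 (0.01) and Btg2 (-0.09) hardly differed.

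Chaperones of the endoplasmic reticulum and the unfolded protein response, which adjusts folding capacity to the load of secreted proteins, were lower almost throughout. Of 31 tested, 30 were lower and 1, the stress sensor gene Ern1, was higher (0.32). Sdf2l1 and Derl3 were lower by 2-fold, where 0.654% of all genes were. The median was -0.31, beside -0.27 in wild-type sucrose and -0.00 in heterozygous starch.

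Hspa5, which encodes BiP, the main chaperone of this compartment, was at 25.9 in wild-type starch, 16.5 in wild-type sucrose, 25.8 in heterozygous starch and 16.1 in heterozygous sucrose, a difference of -0.69. Sdf2l1, a partner of BiP, was at 1.0, 0.458, 0.842 and 0.404 in the same order, a difference of -1.31. Derl3, of the pathway that exports misfolded proteins for breakdown, was at 0.430, 0.225, 0.407 and 0.210, a difference of -1.04. For these 3 genes the 2 starch arrays were close to each other, as were the 2 sucrose arrays. Manf, a secreted factor of the same response, was at 3.02, 1.74, 2.76 and 1.80, and its 2 probes gave -0.75 and -0.72. Creld2 was at 7.29, 4.68, 7.14 and 4.34, a difference of -0.75. The transcription factor gene Xbp1 was lower by 0.46 and the sensor genes Atf6 and Eif2ak3 hardly differed, at -0.10 and -0.00.

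Because members of this list differed together, the bases before their start sites were searched for the endoplasmic reticulum stress response element (CCAAT, any 9 bases, then CCACG) on both strands. The window was the 250 bases before the first listed start in RefSeq on GRCm38.p6, for which 27 of the 31 genes had an entry. The element was present in 9 of the 27 (33.3%), against 33 of 27025 genes in the table (0.122%). The 9 were Hspa5, Hsp90b1, Calr, Canx, Pdia6, Dnajc3, Creld2, Derl3 and Syvn1, and their differences ran from -1.04 for Derl3 to -0.08 for Syvn1, so that genes with the element did not all differ alike. A match describes letters and is no evidence of binding. Shown are 3 of these windows, read 5′ to 3′ along the gene's strand, with the match in capitals; in Creld2 and Derl3 it lies on the opposite strand and so reads as its reverse complement.
Hspa5 (chr2:34771840-34772089, + strand): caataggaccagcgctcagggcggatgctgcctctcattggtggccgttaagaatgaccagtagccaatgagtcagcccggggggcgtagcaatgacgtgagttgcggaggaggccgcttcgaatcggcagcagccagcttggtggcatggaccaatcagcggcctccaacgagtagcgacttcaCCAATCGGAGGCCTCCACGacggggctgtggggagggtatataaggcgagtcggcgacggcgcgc
Creld2 (chr15:88819396-88819645, + strand): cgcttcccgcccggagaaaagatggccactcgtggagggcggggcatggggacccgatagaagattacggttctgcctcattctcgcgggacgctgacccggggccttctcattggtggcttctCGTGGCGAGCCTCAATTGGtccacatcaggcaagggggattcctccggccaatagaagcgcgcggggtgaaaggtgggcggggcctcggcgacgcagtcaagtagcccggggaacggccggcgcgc
Derl3 (chr10:75893148-75893397, + strand): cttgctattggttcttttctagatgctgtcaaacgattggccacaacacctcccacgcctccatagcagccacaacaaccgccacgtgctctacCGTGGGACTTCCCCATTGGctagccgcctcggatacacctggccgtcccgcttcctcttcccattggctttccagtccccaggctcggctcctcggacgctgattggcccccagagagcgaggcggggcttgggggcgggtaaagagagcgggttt

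Cytosolic heat shock genes, the chaperones outside that compartment, had a median of -0.28, with 21 of 26 tested lower, none by 2-fold. Hspa1b, an inducible member of the Hsp70 family with a near-identical neighbour, Hspa1a, was at 1.68 in wild-type starch, 0.855 in wild-type sucrose, 1.48 in heterozygous starch and 0.918 in heterozygous sucrose, a difference of -0.88, and the 2 copies cannot be held apart with certainty by their probes. Hspb1, a small heat shock protein, was at 7.41, 3.93, 7.58 and 4.15 in the same order, a difference of -0.84. Both were lower on both sucrose arrays. Constitutive members differed less, at -0.27 for Hspa8 and -0.05 for Hsp90ab1.

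Interferon-stimulated genes and genes of the major histocompatibility complex (MHC), which presents peptides to T cells, had the lowest median of the 33 lists, at -0.58. Of 31 tested, 29 were lower, 1 of them (Isg15) by 2-fold, where 0.654% of all genes were. The median was -0.59 in wild-type sucrose and -0.15 in heterozygous starch against the same array.

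Isg15, a ubiquitin-like protein induced by interferon, was at 1.23 in wild-type starch, 0.474 in wild-type sucrose, 0.743 in heterozygous starch and 0.460 in heterozygous sucrose, a difference of -1.42. Ifit1, an inhibitor of translation of foreign RNA, was at 0.169, 0.107, 0.188 and 0.0990 in the same order, a difference of -0.77. Gbp2, a guanylate-binding GTPase, was at 0.434, 0.257, 0.380 and 0.246, a difference of -0.82. All 3 were lowest on the heterozygous sucrose array, close to wild-type sucrose. Mx1 and Usp18 were lower by 0.84 and 0.83. Of the MHC genes, H2-D1 was at 2.26, 1.55, 1.77 and 1.48, a difference of -0.62, and B2m, the shared light chain, at 10.9, 7.92, 8.69 and 8.25, a difference of -0.41; the H2 class I genes resemble each other, so their probes may read more than 1 of them. Irf1 (0.09) and Ifi27 (0.07) were the members not lower. Isg20, an interferon-induced exonuclease outside the list, was at 0.755, 0.279, 0.622 and 0.293, and its 2 probes gave -1.37 and -1.51.

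The core of the interferon-stimulated response element (GAAA, any 2 bases, then GAAA) was searched in the same windows on both strands. It was present in 10 of the 22 genes of the list with an entry (45.5%), against 821 of 27025 (3.04%). The 10 were Ifit1, Ifit3, Isg15, Oas1a, Rsad2, Bst2, Gbp2, Gbp3, B2m and H2-T23. All 10 were lower, from -0.41 for B2m to -1.42 for Isg15. With or without the element, 29 of the 31 members tested were lower, where 52.7% of all genes were. Here too a match is no evidence of binding. Windows of 3 of these members are shown, read along the gene's strand with every match in capitals; in Isg15 the 3 matches overlap, and in Ifit1 and Gbp2 each match reads as its reverse complement.
Isg15 (chr4:156200819-156201068, - strand): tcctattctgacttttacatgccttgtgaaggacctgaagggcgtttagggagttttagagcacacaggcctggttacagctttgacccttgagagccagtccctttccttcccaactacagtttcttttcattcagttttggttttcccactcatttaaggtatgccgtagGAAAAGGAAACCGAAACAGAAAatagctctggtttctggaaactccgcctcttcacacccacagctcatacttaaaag
Ifit1 (chr19:34640639-34640888, + strand): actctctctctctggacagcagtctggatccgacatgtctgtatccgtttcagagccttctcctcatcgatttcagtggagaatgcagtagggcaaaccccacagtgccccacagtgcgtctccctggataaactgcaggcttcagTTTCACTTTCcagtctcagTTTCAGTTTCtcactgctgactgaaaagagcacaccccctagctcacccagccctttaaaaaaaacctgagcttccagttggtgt
Gbp2 (chr3:142620413-142620662, + strand): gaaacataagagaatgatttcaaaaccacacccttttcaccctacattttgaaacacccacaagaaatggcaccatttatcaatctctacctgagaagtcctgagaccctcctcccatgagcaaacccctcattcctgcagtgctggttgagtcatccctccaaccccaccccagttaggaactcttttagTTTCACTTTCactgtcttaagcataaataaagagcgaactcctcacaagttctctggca

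Among immediate early genes the same windows held the cyclic AMP response element, TGACGTCA, in 4 of 38 genes (10.5%), against 1.62% of all and 3 of 26 cilia genes, and the CArG box, the site of serum response factor, in 2 of 38 (5.26%), against 1.40% of all.

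**Figure D4:**
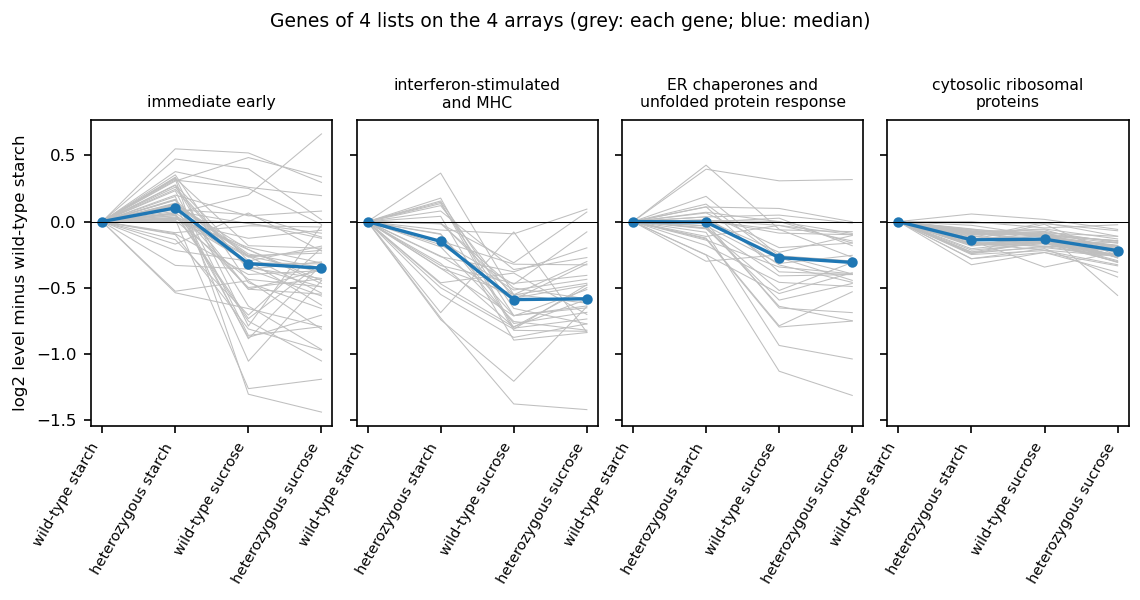
Grey lines are single genes and the blue line the list median on the 4 arrays; the y axis is the log2 level minus that of the wild-type starch array, and lines only join separate arrays. The first 3 lists are lower on both sucrose arrays, with medians of -0.35, -0.58 and -0.31 on heterozygous sucrose, and ribosomal protein genes are lower by a little on all 3 other arrays.

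Haemoglobin genes were lower. Of 23 blood cell genes tested, 19 were lower, 4 of them by 2-fold where 0.654% of all genes were. The median was -0.16 (-0.49 over members above the median level), beside -0.53 in wild-type sucrose and -0.07 in heterozygous starch. Alas2, the red cell enzyme of haem synthesis, was at 1.27 in wild-type starch, 0.405 in wild-type sucrose, 0.969 in heterozygous starch and 0.531 in heterozygous sucrose, a difference of -1.26. Hbb-bt, a beta globin gene, was at 35.6, 13.9, 30.7 and 17.5 in the same order, a difference of -1.03. Hba-a1, an alpha globin gene, was at 115, 58.1, 97.1 and 64.4, a difference of -0.83. Wild-type starch was the highest and wild-type sucrose the lowest array for all 3 genes. Hbb-b1 and Hbb-b2 were lower by 1.33 and 1.29, though globin copies are alike enough that their probes may share signal. The summed level of the list was 321, 176, 277 and 194 over the arrays in the same order; how much of the lower interferon, chaperone and immediate early levels moved with blood in the tissue was not tested.

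Olfactory genes were lower as well, by less than on the wild-type sucrose array. Of 22 olfactory bulb genes tested, 19 were lower, 3 by 2-fold where 0.654% of all genes were, with a median of -0.36, beside -0.43 in wild-type sucrose and 0.03 in heterozygous starch. Trhr, the receptor of thyrotropin-releasing hormone, was 2-fold higher (1.16), where 1.35% of all genes were. Th, tyrosine hydroxylase of dopaminergic neurons, was at 4.29 in wild-type starch, 0.971 in wild-type sucrose, 3.77 in heterozygous starch and 2.15 in heterozygous sucrose. Doc2g was at 1.53, 0.232, 1.24 and 0.687 in the same order, and the transcription factor gene Sp8 at 1.97, 0.522, 1.90 and 0.957. The order of the arrays was the same for these 3 genes, with heterozygous sucrose between the starch arrays and wild-type sucrose.

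Genes outside that list shared this order. Omp, the olfactory marker protein, was at 1.98, 0.108, 0.984 and 0.721 in wild-type starch, wild-type sucrose, heterozygous starch and heterozygous sucrose, a difference of -1.46. S100a5, a calcium-binding protein gene of olfactory neurons, was at 1.71, 0.0612, 0.876 and 0.518, a difference of -1.72. Trh, which encodes thyrotropin-releasing hormone, was at 1.98, 0.329, 1.18 and 0.732, a difference of -1.43. On all 3, wild-type starch was the highest array. The order differed for Gnrh1, the gene of gonadotropin-releasing hormone, which was at 0.673, 0.353, 0.734 and 0.235, a difference of -1.52, but its other, dim probe gave 0.24.

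Some of the lowest genes were high on the wild-type starch array alone. Kri1, a ribosome assembly factor, was at 6.12 in wild-type starch, 2.22 in wild-type sucrose, 2.09 in heterozygous starch and 2.08 in heterozygous sucrose, a difference of -1.56, while its 2 dimmer probes gave -0.14 and -0.24. Rnd1, a small GTPase, was at 3.08, 1.37, 1.16 and 1.07 in the same order, with its other probes at -1.57 and -0.22. Slc6a11, a GABA transporter of astrocytes, was at 0.691, 0.273, 0.255 and 0.263, and Rprml at 1.91, 0.794, 0.664 and 0.768. The other 3 arrays lay close together for each, so these differences rest on 1 array. The 5 lowest of all genes, Ccr2 (-2.58), 1700028E10Rik (-2.57), Drd3 (-2.49), Gm16754 (-2.27) and 6820426E19Rik (-2.24), were of this kind and dim, although the other probe of 1700028E10Rik gave 0.33, with Ccr2, a chemokine receptor, at 0.0845, 0.0125, 0.0124 and 0.0142. Plin4, a lipid droplet protein, was at 0.728, 0.248, 0.381 and 0.221, a difference of -1.72. It was not of this kind, since heterozygous starch was within 2-fold of wild-type starch and the sucrose arrays were lowest.

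In the pathway that Glo1 belongs to, 17 of 33 glyoxalase and carbonyl detoxification genes tested were higher and 16 lower. Akr1b8 and Hpdl were higher by 2-fold or more, 6.06% of the list where 1.35% of all genes were. The median of 0.02 turned negative when arrays were scaled to their median (-0.02) and when the probes of a gene were averaged. Hagh, glyoxalase 2, which completes the reaction, was at 9.12 in wild-type starch, 8.36 in wild-type sucrose, 7.58 in heterozygous starch and 6.88 in heterozygous sucrose, a difference of -0.41. Akr1b8, an aldo-keto reductase, was at 0.629, 0.628, 0.662 and 1.51 in the same order, a difference of 1.27, with heterozygous sucrose alone above the others. Hpdl was at 0.241, 0.260, 0.261 and 0.507, a difference of 1.07. Aldh1b1, a mitochondrial aldehyde dehydrogenase, was at 0.300, 0.177, 0.121 and 0.159, a difference of -0.92, and highest on wild-type starch.

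Among 23 receptors and ligands of glycation products, 10 were higher and 13 lower, none by 2-fold, with a median of -0.08. Ager, the receptor of advanced glycation end products, was at 0.769 in wild-type starch, 0.576 in wild-type sucrose, 0.627 in heterozygous starch and 0.554 in heterozygous sucrose, a difference of -0.47. Lgals3, galectin 3, was higher by 0.92. Of 41 glutathione and antioxidant genes, 17 were higher and 24 lower, none by 2-fold, with a median of -0.00. Of 42 genes of glucose and fructose transport and metabolism, 15 were higher and 27 lower, none by 2-fold, with a median of -0.10 that ranged to 0.03 under other normalizations between arrays.

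Neuronal lists of the cortex itself differed little. Of 30 cortical excitatory genes, 14 were higher and 16 lower, none by 2-fold, and the median of -0.03 changed its sign under quantile normalization, cyclic loess and averaging of probes. The widest members were Lamp5, an upper-layer gene (-0.69), and Crym, a thyroid hormone-binding protein (0.64). Of 34 interneuron genes, 24 were lower and 10 higher, with a median of -0.08. Pvalb, the calcium buffer of fast-spiking cells, was at 5.54 in wild-type starch, 6.93 in wild-type sucrose, 5.25 in heterozygous starch and 5.33 in heterozygous sucrose, a difference of -0.05, and Sst, somatostatin, differed by -0.02. Prox1, described above, was the member higher by 2-fold, where 1.35% of all genes were. Crh, corticotropin-releasing hormone, was at 1.5, 0.988, 1.73 and 0.918, a difference of -0.70.

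Striatal genes had a median near 0 between the 2 arrays compared and well above it on the other arrays. Of 36 tested, 15 were higher and 21 lower, with a median of -0.05 that became 0.02 under cyclic loess, beside 0.60 in wild-type sucrose and 0.39 in heterozygous starch. Lrrc10b (1.80), Sh3rf2 (1.29, its other probe -0.13) and Six3 (1.07) were 2-fold higher, where 1.35% of all genes were, and the dopamine receptor genes Drd3 (-2.49) and Drd2 (-1.02) 2-fold lower, where 0.654% were. Drd1, the D1 dopamine receptor of striatal projection neurons, was at 0.720 in wild-type starch, 1.97 in wild-type sucrose, 1.71 in heterozygous starch and 0.706 in heterozygous sucrose. Adora2a, the adenosine receptor of the other class of these neurons, was at 0.0861, 0.299, 0.295 and 0.0853 in the same order. These 2 genes thus had like levels on the arrays that carried both factors or neither, and levels 2-fold or more above them on both arrays that carried 1.

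Receptors of dopamine, serotonin and neuropeptides had a median of -0.05, with 5 of 37 higher by 2-fold, where 1.35% of all genes were, and 1 lower, where 0.654% were. Npy2r, a neuropeptide Y receptor, was at 0.205 in wild-type starch, 0.194 in wild-type sucrose, 0.175 in heterozygous starch and 0.690 in heterozygous sucrose, a difference of 1.75. Drd5, a dopamine receptor, was at 0.260, 0.445, 0.253 and 0.740 in the same order, a difference of 1.51. Both were highest on heterozygous sucrose, and the other probe gave 1.52 for Npy2r and 1.72 for Drd5. The others higher by 2-fold were Htr4, Tacr3 and Crhr2, with other probes at -0.24 for Htr4 and 0.10 for Crhr2, and the serotonin receptor gene Htr2b was lower (-1.05).

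Cytosolic ribosomal protein genes were lower in 49 of 49 members, where 52.7% of all genes were, by a small amount, with a median of -0.22 and a range from -0.56 for Rpl3 to -0.02. Rpl3 was at 52.4 in wild-type starch, 49.7 in wild-type sucrose, 47.4 in heterozygous starch and 35.6 in heterozygous sucrose, and its 2 other probes gave -0.17 and -0.13. The median was -0.13 in wild-type sucrose and -0.14 in heterozygous starch, and for heterozygous sucrose it ranged from -0.26 to -0.07 over the alternative settings. Genes of mitochondrial respiration were lower in 40 of 43 members with a median of -0.12, which became positive under quantile normalization and cyclic loess, up to 0.04.

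Glial and vascular lists lay near the median of all genes. The medians were -0.13 for 34 genes of microglia, complement and cytokines, -0.14 for 28 astrocyte genes, -0.04 for 28 oligodendrocyte and myelin genes, -0.06 for 32 endothelial genes, 0.06 for 19 pericyte and smooth muscle genes, and 0.11 for 35 genes of meningeal fibroblasts, collagens and laminins. Gfap, the filament protein of astrocytes, was at 2.05 in wild-type starch, 1.29 in wild-type sucrose, 2.24 in heterozygous starch and 2.86 in heterozygous sucrose, a difference of 0.48. Dcn, decorin of fibroblasts, was at 2.78, 2.69, 2.95 and 5.19 in the same order, a difference of 0.90. Lower by 2-fold, where 0.654% of all genes were, were 2 of the 34 microglia, complement and cytokine genes, Ccr2 (-2.58) and Cxcl10, a chemokine gene induced by interferon (-1.81), and 1 of the 28 astrocyte genes, Lcn2, the gene of lipocalin 2 (-1.23).

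The remaining lists had medians between -0.10 and 0.02. These were clotting and fibrinogen (24 genes, -0.01), pituitary and hypothalamic hormones (22, -0.07), prostaglandin synthesis and receptors (26, 0.02), glucocorticoid targets and the circadian clock (33, -0.10), synaptic vesicle release (30, -0.02), GABA and glutamate receptors (35, 0.01) and control genes (16, -0.10). Higher by 2-fold, where 1.35% of all genes were, were 2 of the 24 clotting genes (F5 and Serpinf2) and 1 of the 33 glucocorticoid and clock genes (Nr3c2, the mineralocorticoid receptor). Lower by 2-fold, where 0.654% were, were 3 of the 22 hormone genes (Gnrh1, Oxt, whose other probe gave -0.36, and Trh). Of the other lists named here none had a member past 2-fold.

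**Figure D5:**
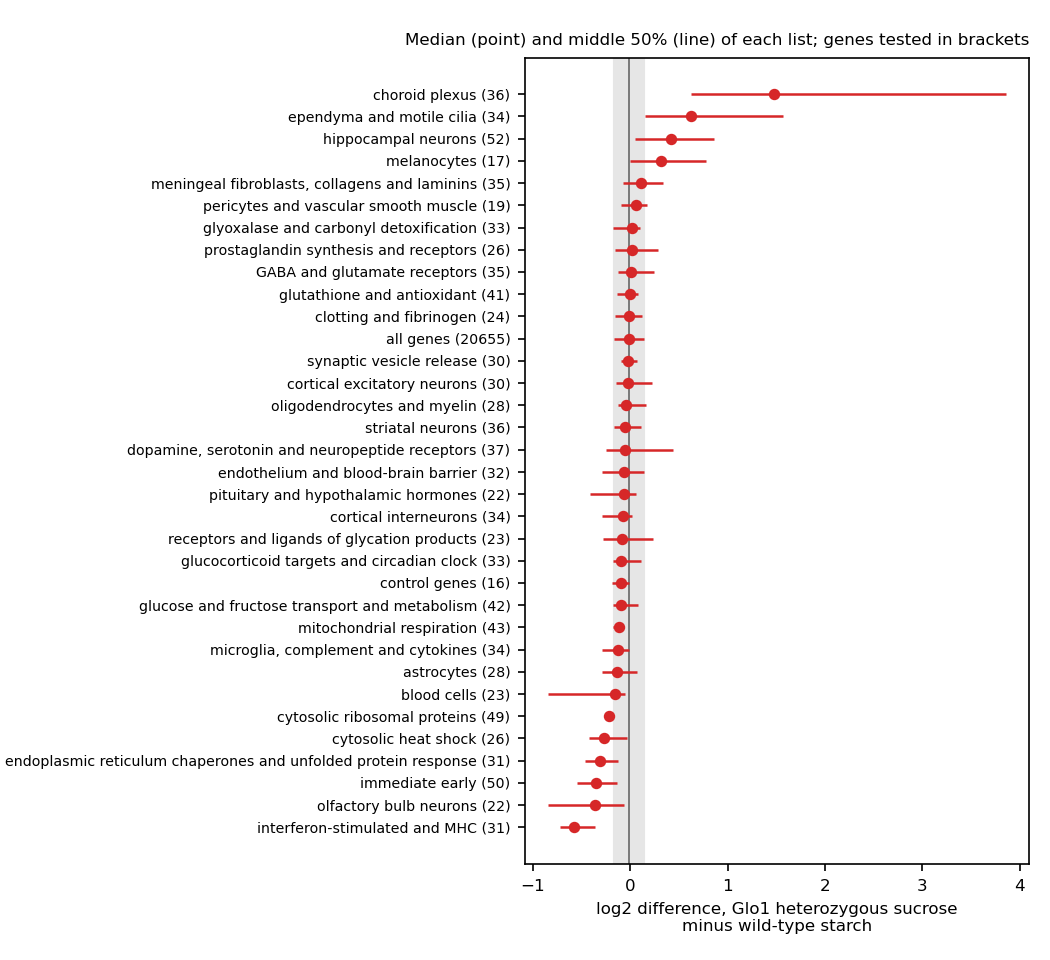
Points give the median log2 difference of each list between heterozygous sucrose and wild-type starch (x axis), lines the middle 50% of its members, and the grey band the middle 50% of all genes. The choroid plexus list lies farthest to the right at 1.47 and the interferon and MHC list farthest to the left at -0.58.

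The same count made for each of the other arrays against the wild-type starch array, which all 3 comparisons share, gave 100 genes higher (0.484%) and 205 lower (0.992%) in wild-type sucrose, and 71 higher (0.344%) and 97 lower (0.47%) in heterozygous starch. Some probes were well above background on 1 side only and give a bound. Of 2399 such probes, 256 had a bound of 2-fold or more above, and 262 below, on heterozygous sucrose, measured against the lowest signal well above background or the dim probe's own. Krt8, the keratin that pairs with that of Krt18, was at least 33.0-fold higher by 1 probe and at least 21.3-fold by another. In the other direction Gm30225, named above, was at least 22.1-fold lower on heterozygous sucrose. Where a probe was printed several times on each array, the SD of a single-spot difference was 0.063 for the brightest quartile of probes (291 probes) and 0.128 for the next (5 probes), which covers spot-to-spot error within an array and not the difference between pools. No value could be had for the 2 dimmer quartiles, which held 213 and 110 of the 413 genes past 2-fold.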

How the data were processed

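RNA of the prefrontal cortex was measured on 4 one-colour Agilent arrays, 1 per group, each from a pool of 3 mice. Per the file headers, the authors' deposited signal intensity (gProcessedSignal) was background-subtracted and detrended within each array, with no step between arrays. Images were read with Agilent Feature Extraction 11.5.1.1, per the submitters' processing notes. The deposited series table holds a ratio of each signal to its array's own 75th percentile, found by comparison with the scanner files, and served as an alternative.

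Each intensity was divided by the 75th percentile of its own array (1780 to 1929 over 59305 spots that are not controls), and log2 was taken. Between 77.6% and 80.2% of these spots were well above background and 0 were saturated. Probes well above background on all 4 arrays were kept, spots of a probe were averaged, outlier spots were left out, and the brightest probe stood for a gene. Of the 20655 gene names, 18294 are RefSeq symbols and 863 older ones. Differences of 2-fold were counted without a test. Counts of genes shared between comparisons are not given, since these share an array.

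Named were Glo1, the 15 highest and 15 lowest genes past 2-fold above the median level, the 5 highest and 5 lowest of all, and in each list the 4 largest differences and those past 2-fold; other genes, among them Hspa5, Fos, Arc, Jun, Foxj1, Gfap and the markers used to check the tissue, were picked for their role after their values were known. The members and lists were chosen with earlier results of these data known. Start-site sequences are RefSeq's, on GRCm38.p6; probe positions are on mm9, per the file headers. Counts were tested on simulated data. Python 3.11.15, pandas 2.3.3, R 4.3.3 and limma 3.58.1 (normalization alternatives only) were used. Some genes that the rule names are not reported here.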

Additional observations from a re-analysis of the deposited data

How the results depend on the processing

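Counts of probes (766; 488 higher, 278 lower) and genes (413; 278 higher, 135 lower) past 2-fold stayed within 1.5 times under median scaling, quantile normalization, cyclic loess, outlier spots kept and the authors' series table; the gene counts also under averaging of a gene's probes and, chosen after seeing the data, without the choroid plexus, cilia and hippocampal lists. Normexp background correction with an offset of 50 gave 232 probes (160 higher, 72 lower) and 147 genes (107 higher, 40 lower). With no filter on dim probes there were 3559 probes (1670 higher, 1889 lower) and 1711 genes (804 higher, 907 lower). Above the median level there were 126 probes (74 higher, 52 lower) and 90 genes (57 higher, 33 lower). At 1.5-fold 3089 probes were counted (1697 higher, 1392 lower), and at 4-fold 116 (95 higher, 21 lower).

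Of the 98 named genes past 2-fold, 77 remained past it under normexp, 89 with probes averaged and between 94 and 98 under the other scalings and filters that keep all of them; none changed its sign. The medians of the choroid plexus (0.95 to 1.51), cilia (0.27 to 0.63), hippocampal (0.20 to 0.45), immediate early (-0.39 to -0.31), chaperone (-0.35 to -0.29) and interferon (-0.62 to -0.48) lists kept their sign. Dim probes limit the precision: 213 of the 413 genes past 2-fold lay in the dimmest quartile of the signal. No paired analysis was possible because each group has 1 array.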

Other observations

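The probes of Kri1 (chr9:21077924-21077983, mm9) and Gm16754 (chr9:21037008-21037067, mm9), which were both high on the wild-type starch array alone, lie near each other on chromosome 9. Gm16754 was at 0.0486 in wild-type starch, 0.0133 in wild-type sucrose, 0.0131 in heterozygous starch and 0.0100 in heterozygous sucrose, and Kri1 at 6.12, 2.22, 2.09 and 2.08 in the same order. Both were singled out after their values were seen.

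Other genes above the median level showed the same order, also seen only after the fact. Fkbp2, a prolyl isomerase of the endoplasmic reticulum, was at 13 in wild-type starch, 6.91 in wild-type sucrose, 6.61 in heterozygous starch and 6.19 in heterozygous sucrose. Pfdn2, a prefoldin subunit, was at 7.71, 4.43, 4.10 and 3.82 in the same order. Each of these rests on 1 probe.

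Genes that were alike on the 2 arrays compared could still differ on the others. Rgs9, a regulator of G-protein signalling in striatal neurons, was at 2.38, 5.45, 4.80 and 2.20 in wild-type starch, wild-type sucrose, heterozygous starch and heterozygous sucrose. Prl, the gene of the pituitary hormone prolactin, was at 0.0101, 0.0305, 0.106 and 0.0105 in the same order.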
